A study of Mus musculus with 2 samples.

Results

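The genes that make, bind and break down cyclic nucleotides were compared between the atherosclerosis-prone arch and the resistant thoracic aorta of apoE-/- mice. The members were taken by name. They are the adenylyl cyclases (Adcy), guanylyl cyclases (Gucy), subunits of the cAMP-dependent kinase (Prkac, Prkar), cGMP-dependent kinases (Prkg), cyclic nucleotide phosphodiesterases (Pde) and numbered A-kinase anchoring proteins (Akap) in the array's own gene names. The name rule found 59 genes on 119 probes, out of 28658 genes on 41174 probes. The rule uses names alone, but the group was put together with earlier results of these data known.

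The study hybridised 2 two-colour mouse whole genome arrays, each carrying the same 2 RNA pools with the dyes exchanged. Per the labels, each pool came from 6 mice with the apoE-/- genotype (3 males and 3 females aged 16 weeks), which lack apolipoprotein E and develop atherosclerosis. Aortic root, arch and an initial 2 mm of thoracic aorta made up the arch pool, and the next 6 mm made up the thoracic pool. The labels state that endothelium was removed by perfusion with Triton X-100, and they call the result smooth muscle cells. Both pools carry the same gene deletion, and no wild-type mouse enters the comparison. RNA integrity numbers lay between 7.5 and 7.7. Each mouse gave 12 µl of extract to its pool, and 5 µg of transcribed RNA was labelled with each dye. Array 1 had the arch pool in Cy3 and the thoracic pool in Cy5, and array 2 had them the other way round.

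Both arrays repeat 1 comparison of 2 pools, so they were counted as 1 replicate. No test, p-value or spread between mice could be computed, and ± gives the SD of both arrays, a technical spread. Values are log2 ratios of arch over thoracic, so that positive values mean a brighter signal in the arch pool. A gene was called when its mean ratio reached 2-fold (log2 of 1) and each array showed at least 1.5-fold the same way. In pooled tissue, fewer cells of a type and less RNA per cell cannot be told apart.

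Cyclic AMP and cyclic GMP are the second messengers through which hormones, prostacyclin, nitric oxide and natriuretic peptides relax vascular smooth muscle. Adenylyl cyclases make cAMP below G protein-coupled receptors, soluble guanylyl cyclase makes cGMP when nitric oxide binds its haem, and receptor guanylyl cyclases make cGMP at the membrane. The messengers act mainly through protein kinase A and protein kinase G, phosphodiesterases end the signal, and anchoring proteins hold kinase, phosphodiesterase and substrate together. In the artery wall these pathways are known for lowering tone and for restraining growth and migration of smooth muscle.

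The pair of genes that encode the common soluble guanylyl cyclase read in opposite directions on every probe, and they lie next to each other in the genome. Their current symbols are Gucy1a1 (Gucy1a3 on the array, the alpha subunit) and Gucy1b1 (Gucy1b3 on the array, the beta subunit, which carries the haem). In the RefSeq table of GRCm38.p6 no other protein-coding gene lies between them on chromosome 3, and both are on the minus strand. Their promoters are shown because of that contrast, given in full with the guanylyl cyclases. Each sequence runs 5′ to 3′ from 250 bases before to 50 bases after a RefSeq start, and capitals mark matches to the motifs named after them. The Gucy1b1 promoter is chr3:82074662-82074961 and the Gucy1a1 promoter is chr3:82145601-82145900, both on the minus strand of GRCm38.p6.
Gucy1b1: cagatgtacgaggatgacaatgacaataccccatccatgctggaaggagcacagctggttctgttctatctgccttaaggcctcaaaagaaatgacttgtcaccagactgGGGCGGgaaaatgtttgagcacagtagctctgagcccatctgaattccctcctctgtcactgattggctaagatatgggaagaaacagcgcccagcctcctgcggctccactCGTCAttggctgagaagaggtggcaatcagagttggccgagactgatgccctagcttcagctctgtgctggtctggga
Gucy1a1: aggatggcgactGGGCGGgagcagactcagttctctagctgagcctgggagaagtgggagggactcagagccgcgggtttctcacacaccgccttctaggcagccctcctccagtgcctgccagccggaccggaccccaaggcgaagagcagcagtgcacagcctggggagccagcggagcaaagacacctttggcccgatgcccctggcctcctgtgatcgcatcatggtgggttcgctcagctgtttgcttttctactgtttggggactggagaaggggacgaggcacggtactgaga

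The motifs searched on both strands were TGACGTCA (the full cAMP response element), TGACG (its core, which also lies within the full element), GGGCGG (the core of the GC box) and the CArG box (bound by serum response factor in smooth muscle genes). The Gucy1b1 promoter held 1 GGGCGG and 1 TGACG, the latter read on the opposite strand as the capitals CGTCA, with a GC content of 52.3%. The Gucy1a1 promoter held 1 GGGCGG and no TGACG, with a GC content of 62.3%. A further Gucy1a1 start, at chr3:82145024-82145323 on the minus strand, had the same GC content and none of the 4 motifs.

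Of the 59 genes, 48 had promoters in the RefSeq table, 96 promoters of 300 bases in all. TGACGTCA was found in 2 of the 96 (2.08%), both of Prkar1a, a regulatory subunit of protein kinase A, against 1.79% of all 32851 promoters. TGACG was in 22.9% of the member promoters and 20.8% of all, and GGGCGG in 47.9% and 35.7%. The CArG box was in 0 of the 96 and in 1.63% of all. Median GC content was 56.7% for the members and 52.7% for all promoters. These matches describe letters in a window and were not tested as sites.

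Signal was sufficient for most members. Between 76.5% and 82.6% of 41534 gene spots were well above background per pool and array. By the scanner's flags, 94 of the 119 member probes stood well above background in at least 1 pool, the same pool on both arrays, and 0 were saturated. Each gene was read from the brightest of these probes, which left 54 of the 59 genes, against 22813 genes overall. The other 5 (Adcy8, Akap3, Pde6a, Pde7b and Prkg2) had no probe above that limit and were not compared. Of the 54, 51 were above background in both pools on both arrays, the exceptions being Adcy2 and Gucy1a2 in the arch pool and Pde8b in the thoracic pool.

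No member passed the size rule in either direction. The same rule called 0.618% of all genes compared, 0.473% higher in the arch pool (108 genes) and 0.145% higher in the thoracic pool (33 genes). All 54 members also lay under 1.5-fold in the mean, a limit that 1.86% of all genes passed in 1 direction on both arrays. The members ranged from -0.29 (Gucy1b3) to 0.53 (Akap2), while all genes ranged from -3.45 to 4.09. The median over the members was 0.03, against -0.01 over all genes, and the median size of the ratio was 0.09 against 0.08. Of the 54 members, 34 read above 0, beside 47.3% of all genes.

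Small ratios were repeatable for some members and not for others. The median SD between arrays was 0.05 for the members and 0.06 for all genes, which is of the order of the median ratio itself. The 2 arrays correlated across the members with Pearson's r of 0.62 and a Spearman coefficient of 0.61 (54 genes, which share their RNA pools and arrays). Over all 22813 genes the values were 0.81 and 0.58. On both arrays 25 members were positive (arch) and 12 negative (thoracic), where 32.4% and 35.2% of all genes were, 67.6% together.

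A lower limit of 1.2-fold the same way on each array, chosen after the values were seen, was used to describe the repeatable small differences. It took 4 members higher in the arch pool (Akap2, Gucy1a3, Akap12 and Pde4b), where 5% of all genes passed. In the thoracic direction it took 1 member, Gucy1b3, where 2.75% of all genes passed. Read against the dyes instead of the pools, 1 member (Pde4c) and 0.281% of all genes passed the limit. For 6 members read from dim probes, chosen after their values were seen, the authors' deposited log ratio lay farther from 0 on the same side. It stood at -0.54 for Adcy2, 0.25 for Adcy3, 0.27 for Pde10a, 0.34 for Pde9a, -0.29 for Pde11a and -0.38 for Gucy2c, where the values from the mean signals were -0.07, 0.08, 0.07, 0.21, -0.13 and -0.26. Among them Adcy2 was well above background in the thoracic pool only.

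**Figure D1:**
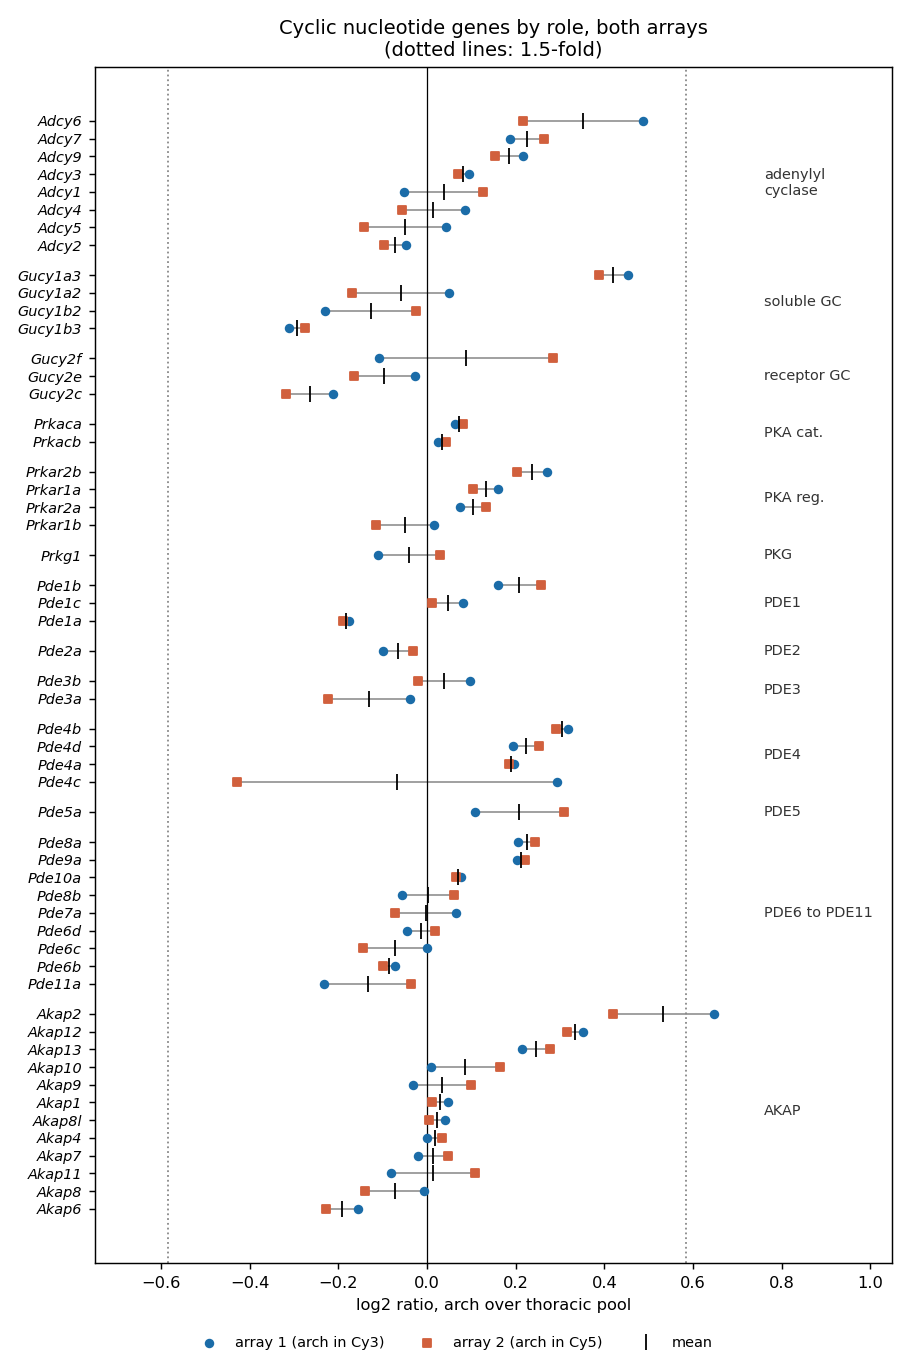
Log2 ratio of arch over thoracic for the 54 cyclic nucleotide genes compared, grouped by role on the vertical axis. Circles are array 1, squares are array 2, ticks are the mean, and the dotted lines at 1.5-fold are passed by 1 single point, Akap2 on array 1 (0.65).

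**Figure D2:**
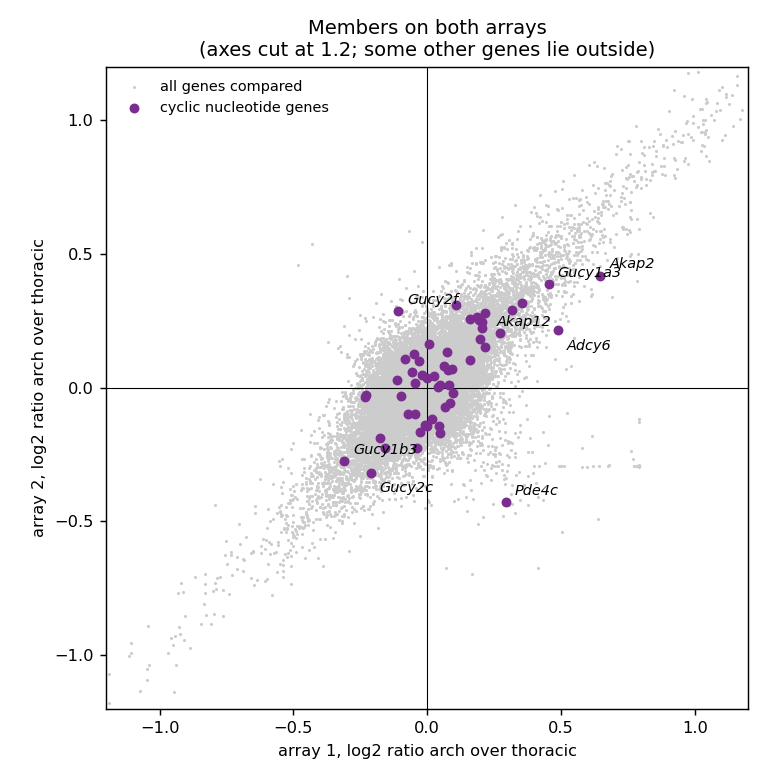
Log2 ratio of arch over thoracic on array 1 (horizontal) against array 2 (vertical), with the 54 members in purple over the genes compared in grey, both axes shown from -1.2 to 1.2. Akap2 (0.65 and 0.42) lies at the upper right, Gucy1b3 (-0.31 and -0.28) at the lower left, and Pde4c (0.29 and -0.43) changes sign with the dyes.

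Adenylyl cyclases, which turn ATP into cAMP, were represented by 8 of 9 genes with a median of 0.06. Of these, 6 read above 0 and 4 read higher in the arch pool on both arrays, beside 47.3% and 32.4% of all genes. Adcy6, an isoform inhibited by calcium and common in muscle, had the largest ratio of the class. Its normalised signal was 2998 in the arch and 2138 in the thoracic pool on array 1, and 2227 and 1917 on array 2. The arch signal was the higher on both arrays, but the ratio was 0.49 on array 1 and 0.22 on array 2, a mean of 0.35 ± 0.19.

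Adcy7, a calcium-insensitive isoform known in blood cells, read 172.2 in the arch and 151.3 in the thoracic pool on array 1, and 169.6 and 141.2 on array 2. Its mean ratio was 0.23 ± 0.06, and 0.35 in the authors' deposited log ratio. Adcy9, a widely expressed isoform with weak response to forskolin, stood at 0.22 and 0.15 on the arrays. All these arch signals were above the thoracic ones.

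Adcy3, an isoform of smooth muscle and olfactory neurons, had 2 probes above background, at 0.08 ± 0.02 and 0.21 ± 0.06. Both were positive on both arrays. Adcy5, the close relative of Adcy6, read 0.04 on array 1 and -0.14 on array 2, so that its direction changed with the array, as it did on a further probe (0.04 ± 0.12). The calcium-stimulated Adcy1 (0.04 ± 0.13) and Adcy4 (0.01 ± 0.10) also changed sign. Adcy2, well above background in the thoracic pool only, was at -0.07 ± 0.04.

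Soluble guanylyl cyclase is the nitric oxide receptor and works as a dimer of an alpha and a beta subunit. Gucy1a3, the alpha subunit, gave 805 in the arch and 587.9 in the thoracic pool on array 1, and 804.3 and 615.1 on array 2. Its ratio was 0.42 ± 0.05, 1.34-fold higher in the arch pool. The beta subunit Gucy1b3 gave 1709 in the arch and 2120 in the thoracic pool on array 1, and 1746 and 2114 on array 2. Its ratio was -0.29 ± 0.03, 1.23-fold higher in the thoracic pool. On each array the arch and thoracic signals of either subunit thus stood in a fixed order, and the 2 subunits stood in opposite orders.

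The contrast held for every probe of both subunits. The 3 Gucy1a3 probes stood at 0.42, 0.43 and 0.32 and the 3 Gucy1b3 probes at -0.29, -0.26 and -0.22. All 6 carry RefSeq mRNA accessions, were above background in both pools and kept their sign on both arrays. Among the 27 members with 2 or more probes above background, 7 had every probe on 1 side on both arrays, as 31.5% of 6857 such genes did. Of the 11 members with 3 or more, the 3 that did so were Akap2, Gucy1a3 and Gucy1b3, beside 18.8% of 1908 genes.

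**Figure D3:**
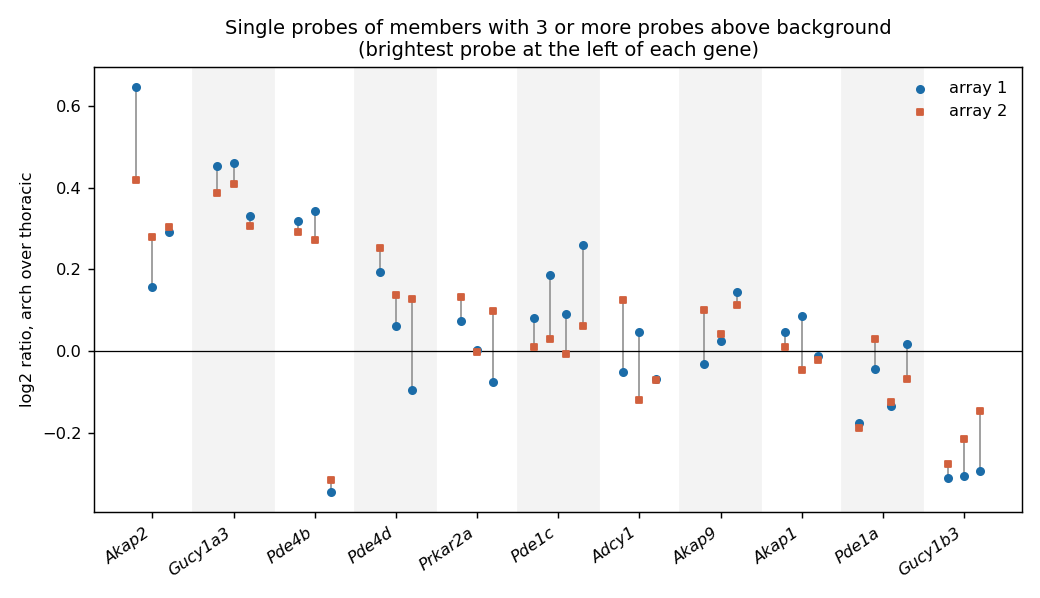
Log2 ratio of arch over thoracic for each probe of the 11 members with 3 or more probes above background, brightest probe at the left of each gene, array 1 as circles and array 2 as squares. All Gucy1a3 probes lie between 0.31 and 0.46 and all Gucy1b3 probes between -0.31 and -0.15, while the third Pde4b probe (-0.35 and -0.32) lies opposite to the first and second.

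The other soluble subunits were dimmer or less repeatable. Gucy1a2, the second alpha subunit, was above background in the arch pool on 1 array only and read -0.06 ± 0.15. Gucy1b2 read -0.23 on array 1 and -0.03 on array 2. The receptor guanylyl cyclases in the name rule are Gucy2c, the intestinal guanylin receptor, and the retinal Gucy2e and Gucy2f. Gucy2c signals were 168.8 in the arch and 195.5 in the thoracic pool on array 1, and 159.4 and 198.6 on array 2, a ratio of -0.26 ± 0.07. Gucy2c thus read higher in the thoracic pool on both arrays, on a single probe. Gucy2e stood at -0.10 ± 0.10, with a further probe at 0.02 ± 0.23, and Gucy2f at 0.09 ± 0.28, whose sign changed with the array.

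Protein kinase A is a tetramer of regulatory and catalytic subunits, and its catalytic subunits had ratios close to 0. Prkaca, the main catalytic subunit of most tissues, read 1325 in the arch and 1268 in the thoracic pool on array 1, and 1296 and 1225 on array 2. Its ratio was 0.07 ± 0.01 and stayed between 0.04 and 0.08 under all settings tried. Prkacb, the second catalytic subunit, had probes at 0.03 ± 0.01 and 0.16 ± 0.04.

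Regulatory subunits bind cAMP and set the catalytic subunits free. Of the 4 genes, 3 read higher in the arch pool on both arrays, beside 32.4% of all genes, and their median over all 4 was 0.12. Prkar2b, a type II subunit bound by anchoring proteins, gave 811.5 in the arch and 672.9 in the thoracic pool on array 1 and a ratio of 0.24 ± 0.05 over both arrays. Prkar1a, the type I subunit of most cells, gave 1171 and 1049 on array 1 and a ratio of 0.13 ± 0.04. Prkar2a, the widely expressed type II subunit, was at 0.10 ± 0.04, while its further probes stood at 0.00 and 0.01 and changed sign between the arrays. Prkar1b, the neuronal type I subunit, was at -0.05 ± 0.09 with a change of sign, and at 0.04 ± 0.26 on a further probe.

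Prkg1, the cGMP-dependent kinase that carries much of the relaxing action of nitric oxide in smooth muscle, showed no repeatable direction. Its signal was 242.7 in the arch and 262.2 in the thoracic pool on array 1, and 250.3 and 245.4 on array 2. The pools thus changed order between the arrays, at -0.04 ± 0.10, and a further Prkg1 probe read 0.09 ± 0.02. Prkg2, the membrane-bound kinase of intestine and kidney, was not well above background.

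**Figure D4:**
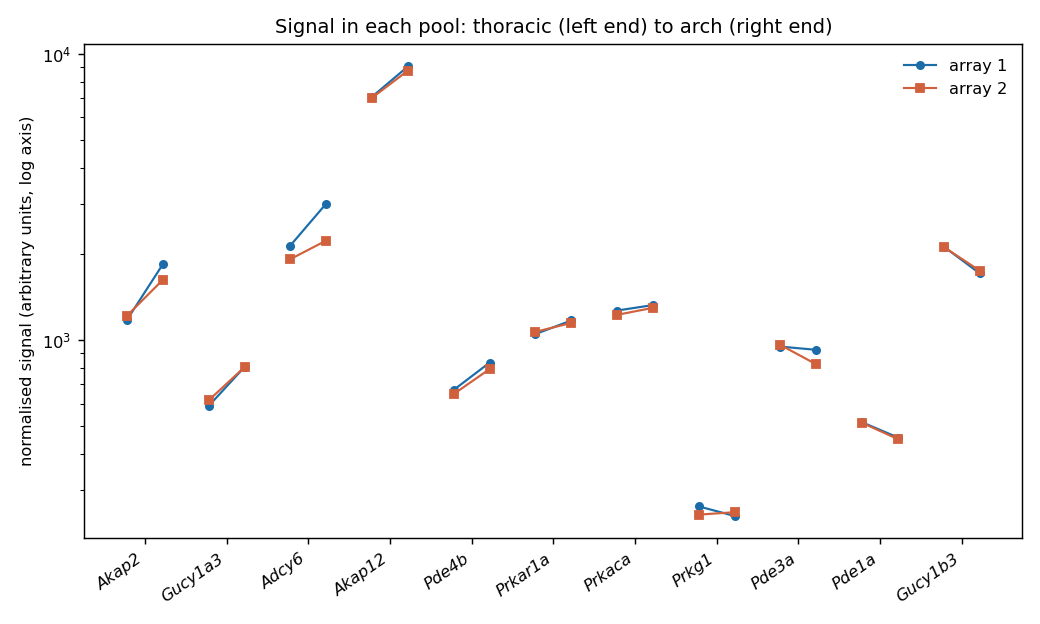
Normalised signal (arbitrary units, log axis) of 11 members in the thoracic pool (left end of each line) and the arch pool (right end), array 1 with circles and array 2 with squares. Lines for Akap2, Gucy1a3, Adcy6, Akap12, Pde4b, Prkar1a and Prkaca slope upward on both arrays, and those for Gucy1b3, Pde1a and Pde3a slope downward. Prkg1 changes direction between the arrays. Levels of different genes come from different probes and are not comparable.

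Phosphodiesterases hydrolyse cAMP, cGMP or both. Of 22 genes named for them, the subunit gene Pde6d included, 20 were compared, with a median of 0.02. Among these 20, 11 read above 0, beside 47.3% of all genes. The PDE1 family is activated by calcium and calmodulin. Pde1a, its smooth muscle member that prefers cGMP, read 456.3 in the arch and 515.8 in the thoracic pool on array 1, and its ratio was -0.18 ± 0.01. The thoracic signal was thus the higher on both arrays, while its further 3 probes stood at -0.13, -0.03 and -0.01.

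Pde1b, which is known from brain and macrophages, was at 0.21 ± 0.07 and read higher in the arch pool on both arrays. Pde1c, known from proliferating smooth muscle, was at 0.05 ± 0.05, and its 4 probes above background lay between 0.04 and 0.16. Pde2a, which cGMP activates, was at -0.07 ± 0.05, with a further probe at 0.02 ± 0.02. All of these lay well under 1.5-fold.

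PDE3 enzymes break down cAMP and are inhibited by cGMP, which links the 2 pathways in smooth muscle. Pde3a, the main vascular isoform, read 924.2 in the arch and 948.6 in the thoracic pool on array 1, with ratios of -0.04 and -0.22 on the arrays. A further Pde3a probe stood at 0.05 ± 0.06, so that the probes did not share a sign. Pde3b, the isoform of fat and liver, was at 0.04 ± 0.08 with a change of sign.

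PDE4 enzymes are specific for cAMP. On the brightest probes, 3 of the 4 genes read higher in the arch pool on both arrays, beside 32.4% of all genes. The median of the 4 genes was 0.21. With the median over a gene's probes, Pde4b was at 0.29, Pde4d at 0.10 and Pde4a at 0.02. Pde4b, the isoform most tied to inflammatory cells, gave 834 in the arch and 669.3 in the thoracic pool on array 1, and 791.9 and 647.4 on array 2. Its ratio was 0.30 ± 0.02, 1.23-fold higher in the arch pool. A further RefSeq probe stood at 0.31 ± 0.05, but another Pde4b probe, which carries no RefSeq mRNA accession, stood at -0.33 ± 0.02. Of the 119 member probes 43 carry none, including those read for Prkar2b, Akap13, Pde4d, Pde3a, Gucy2c and Akap6. The Pde4b probes thus gave 2 repeatable and opposite readings.

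Pde4d, a PDE4 isoform of heart and smooth muscle, was at 0.22 ± 0.04 on a dim probe. The authors' deposited log ratio put it at 0.59, and its other probes above background, which carry RefSeq mRNA accessions, stood at 0.10 and 0.02. Pde4a was at 0.19 ± 0.01, with another probe at -0.16 ± 0.12. Pde4c followed the dyes, at 0.29 on array 1 and -0.43 on array 2.

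Pde5a, the cGMP-specific enzyme blocked by sildenafil, gave 263.8 in the arch and 244.7 in the thoracic pool on array 1, and 277.8 and 224.3 on array 2. The arch signal was the higher on both arrays, at 0.21 ± 0.14, with a ratio on array 2 (0.31) well above that on array 1 (0.11). In the remaining families 9 of 11 genes were compared, with a median of 0.00. The cAMP-specific Pde8a (0.22 ± 0.03) and the cGMP-specific Pde9a (0.21 ± 0.01) repeated closely in the arch direction. Pde10a, which hydrolyses both messengers, was at 0.07 ± 0.01, and Pde11a was at -0.13 ± 0.14. The photoreceptor genes Pde6b and Pde6c, Pde6d (a widely expressed protein that binds prenyl groups and is no hydrolase), Pde7a and Pde8b lay between -0.09 and 0.00. A further Pde7a probe stood at 0.10 ± 0.10.

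Anchoring proteins bind the regulatory subunits of protein kinase A and place the kinase at membranes, mitochondria or the cytoskeleton. They held the largest arch ratio among the members. Akap2, which ties the kinase to the actin cortex, gave 1840 in the arch and 1175 in the thoracic pool on array 1, and 1624 and 1215 on array 2. Its ratio was 0.53 ± 0.16, 1.45-fold higher in the arch pool. Its 2 other probes stood at 0.22 ± 0.09 and 0.30 ± 0.01, so that all 3 pointed to the arch pool on both arrays with differing size. The current RefSeq name of the locus is Pakap, which joins Akap2 with Palm2.

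Akap12 (gravin), a scaffold for protein kinases A and C that is known to follow growth arrest, gave 9039 in the arch and 7080 in the thoracic pool on array 1, and 8744 and 7022 on array 2. Its ratio was 0.33 ± 0.03 on a single probe, and 0.20 with array-wide centring in place of loess. Akap13, a large scaffold known from heart muscle, had probes at 0.25 ± 0.04 and 0.29 ± 0.11, with the arch signal the higher on both arrays. A further probe now assigned to Akap13, filed under a clone name outside the rule, stood at 0.00 ± 0.06 and changed sign.

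Of the other 9 anchoring proteins compared, Akap6, known from the muscle nuclear envelope, had the largest ratio in the thoracic direction, at -0.19 ± 0.05, although its further probe was at 0.03. Akap8, a nuclear protein, was at -0.07 ± 0.09 and Akap10, a mitochondrial one, at 0.09 ± 0.11 with a further probe at -0.18 ± 0.17. Akap1, Akap4, Akap7, Akap8l, Akap9 and Akap11 lay between 0.01 and 0.03, and further probes of Akap1, Akap4 and Akap9 between -0.02 and 0.13. A further Akap11 probe read -0.43 ± 0.02, the most negative of any member probe above background, so that the 2 Akap11 probes did not give the same reading.

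The rest of the pathway was described from 4 lists of 73 genes that hold no member, of which 64 were compared. The size rule took 0 of them in the arch direction and 1 in the thoracic direction, beside the 0.473% and 0.145% of all genes given above. Their median was 0.02. With the 1.2-fold limit the counts were 11 and 4, where 5% and 2.75% of all genes passed.

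The list of receptors and G proteins coupled to adenylyl cyclase also holds the ligand gene Adcyap1. Of its 19 genes 18 were compared (median 0.04), and the gene called was Calcrl, the receptor shared by CGRP and adrenomedullin. Calcrl stood at -1.29 ± 0.09 in the thoracic direction, while a further Calcrl probe stood at -0.09. The prostaglandin E receptor Ptger4 (0.40 ± 0.12) and the prostacyclin receptor Ptgir (0.37 ± 0.06) pointed to the arch pool. The listed receptors that raise cAMP thus read in both directions.

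In the nitric oxide and natriuretic peptide list all 9 genes were compared, with a median of 0.05. Npr3, the clearance receptor that removes natriuretic peptides, was at 0.68 ± 0.01, under the 2-fold limit. The natriuretic receptor cyclases Npr2 (0.21 ± 0.16) and Npr1 (0.16 ± 0.15) and the endothelial synthase Nos3 (0.09 ± 0.10) followed. A further Npr3 probe stood at 0.49, and the Npr2 probes ranged from -0.08 to 0.33. None of the 9 passed the size rule.

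Effectors and inhibitors, a list that also holds substrates and channels, gave 22 of 27 genes with a median of -0.02. Popdc2, a cAMP-binding membrane protein of muscle, was at 0.89 ± 0.05. Pln, the phospholamban that restrains the calcium pump, was at 0.66 ± 0.03, and Hspb6, a small heat shock protein phosphorylated during relaxation, at 0.63 ± 0.01. Ppp1r12a, the targeting subunit of myosin phosphatase, was at -0.53 ± 0.01 with another probe at -0.23. Genes such as Rapgef4, Trpc6 and Cngb3 were not above background.

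In the list of CREB and its targets 15 of 18 genes were compared, with a median of 0.00. Pck1, a gluconeogenic enzyme, stood at 0.37 ± 0.01 and the coactivator Ep300 at 0.25 ± 0.04 with another probe at -0.01. The immediate early genes Nr4a2 (-0.31 ± 0.14) and Fos (-0.28 ± 0.03) pointed to the thoracic pool. Creb1 itself was at 0.00 ± 0.01, its lowest probe at -0.06.

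**Figure D5:**
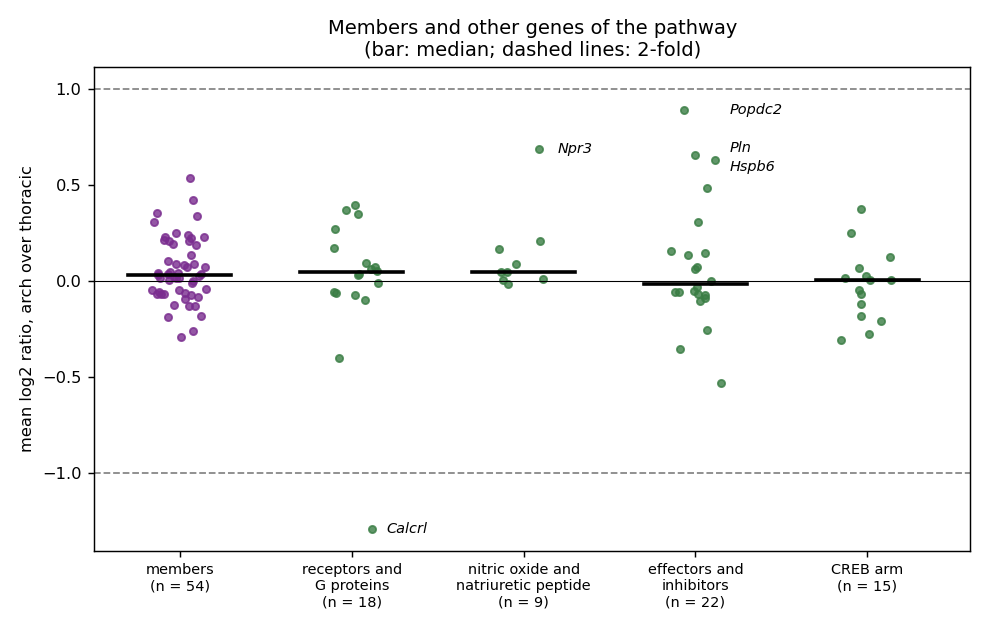
Mean log2 ratio of arch over thoracic (vertical axis) for the 54 members and the 64 compared genes of the other 4 pathway lists, with bars at the medians (0.03, 0.04, 0.05, -0.02 and 0.00) and dashed lines at 2-fold. Calcrl (-1.29) is the single point outside the dashed lines.

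Some markers of other cells moved between the same pools, and their part in the readings of the members was not tested. Of 10 macrophage markers 4 were called higher in the arch pool (median 0.43, led by Cd5l at 4.09), of 10 heart muscle markers 5 (0.62, Myl7 at 3.65), and of 7 mesothelial markers 6 (1.42, Upk3b at 1.79). Of 10 endothelial markers 1 was called (0.54, Kdr at 1.24), and of 7 brown fat markers 1 (median 0.54, Dio2 at 1.12). Above 0 were 8 macrophage, 8 heart muscle, 7 mesothelial, 10 endothelial and 5 brown fat markers. Below 0 were the macrophage markers Cd14 (-0.14) and Adgre1 (-0.06) and the heart muscle markers Ryr2 (-0.14) and Myh6 (-0.05). So were the brown fat markers Elovl3 (-0.32) and Ppargc1a (-0.05). The called heart muscle gene Sln (2.20) had a further probe at -0.01. None of the smooth muscle, adipocyte, nerve or skeletal muscle markers was called (medians 0.13, -0.03, -0.01 and 0.01). Summed signals in arch and thoracic pools on array 2 were 78360 and 68140 for macrophage, 30900 and 21070 for heart muscle, 6120 and 2271 for mesothelium, 2630 and 1630 for endothelium and 17900 and 11420 for brown fat. On array 1 the same sums were 108900 and 57410, 28160 and 22990, 6434 and 2341, 2636 and 1674, and 18890 and 11640. The macrophage sums include a saturated Lyz2 probe, whose ratio was 0.79 on array 1 and -0.12 on array 2. The 10 smooth muscle markers were all above background, with Acta2 and Tagln saturated, and their sums in arch and thoracic pools changed order, from 232000 and 156200 on array 1 to 178200 and 199900 on array 2. Every marker in these cell type lists had a probe well above background. Endothelial markers were thus measurable, although the labels state that endothelium was removed.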

How the data were processed

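Per the file headers, the authors' scanner tables hold intensity values per spot, made with Agilent Feature Extraction 8.1.1.1 (9.1.1.1 per the submitters' processing notes). Their deposited log ratio is the log10 of Cy5 over Cy3 processed signal. The series table that was deposited repeats these log10 ratios averaged per probe, with array 1 turned, so that both of its columns read arch over thoracic. It correlated with the turned scanner ratios at 1 and 0.9999, with medians of 0. The probes' genome build was not given in the sources used here.

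Mean signals and median local backgrounds were put through normexp (offset of 50) and loess within each array in limma 3.58.1 (R 4.3.3), giving controls a weight of 0. Controls and outlier spots (8 and 5) were then left out, spots of 1 probe averaged, array 1 turned and both arrays averaged. The steps were tested on simulated data with changes of 2-fold or more on brighter probes, which does not cover the small ratios of the members. Negative control spots averaged 77.0 to 97.1 against median local backgrounds of 55 to 66, and the offset lowers the ratios of dim probes. The brightest probe well above background, by the scanner's flags, stood for its gene. The number of arrays limits the precision.

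Members and lists were chosen with earlier results of these data known. The genes named are the 3 largest ratios of each role class, listed vascular genes and the 4 largest ratios of each other list (some are not reported here), while Adcy1, Adcy2, Adcy4, the remaining guanylyl cyclases, Prkar1b, Pde4c, Pde6 genes, Pde7a, Pde8b, the other anchoring proteins and Creb1 were named after their values were seen. Current names came from a RefSeq table of GRCm38.p6 (21445 probes by accession, 5431 by symbol, 4636 by unique synonym, and 9662 under the file's own name). It renames 3 members. Alternatives were no loess, other backgrounds, the deposited ratios, other filters, the median over probes, other limits and each array alone.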

Additional observations from a re-analysis of the deposited data

How the results depend on the processing

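No member passed the size rule under any of the settings tried. Over all genes the counts higher in the arch and thoracic pools, 108 and 33, became 65 and 21 without background subtraction, 196 and 66 with a normexp offset of 0, 232 and 77 with the deposited log ratio or the deposited series table, and 320 and 104 at 1.5-fold in the mean. For the other pathway genes the count of 1 became 5 with the offset of 0 (Calcrl, Hspb6, Npr3, Pln and Popdc2), 6 with the deposited log ratio and with the series table (with Ptger4), 5 at 1.5-fold and 0 with the median over a gene's probes. The members' median of 0.03 was 0.03 with a median shift in place of loess, with the offset of 0 and with the filter on both RNAs, 0.02 without background subtraction, without a filter and with the median over probes, 0.04 with the deposited log ratio and the series table, and 0.05 with either array left out. The 1.2-fold limit, the count of shared signs and the account of single probes were chosen after seeing the data. The 4 and 1 members past that limit became 1 and 0 with the median shift (Akap2), 4 and 0 without background subtraction and with the median over probes, 8 and 2 with the offset of 0, 7 and 2 with the deposited ratios, and 7 to 8 and 1 to 3 with either array left out. Of 31 named members, Prkg1 changed sign with the median over probes and without array 1, Pde3b without array 1 and Adcy5 without array 2. Gucy1a3 ranged from 0.38 to 0.45, Gucy1b3 from -0.35 to -0.26, Pde4b from 0.28 to 0.32 and Akap2 from 0.30 to 0.65. No paired analysis was possible because both arrays carry the same 2 pools and no test was made. With 1 pool per segment, differences between mice were not measured, and ratios of probes near background are bounded by unspecific signal.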

Other observations

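Some genes of the same families stand on the array under clone names or other gene symbols and so fell outside the name rule. Akap5, an anchoring protein for kinase and phosphatase at the membrane, read 0.15 ± 0.02 and pointed to the arch pool on both arrays. The Palm2 probes of the locus now joined with Akap2 stood at 0.16 ± 0.14 and 0.02 ± 0.03. Both Akap17b probes pointed to the thoracic pool on both arrays, at -0.15 ± 0.11 and -0.12 ± 0.10. Of the probes for Pde4dip (myomegalin, a PDE4-binding protein of the Golgi), 5 were above background, 4 of them between 0.02 and 0.06 and 1, filed as Usmg4, at -0.39 ± 0.11. Adcy10, the soluble adenylyl cyclase, was not well above background.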
